A study of Mus musculus with 12 samples.

Results

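Acute phase proteins are secreted proteins, made mainly by hepatocytes, whose amount in blood changes during inflammation and tissue injury. The 10 mouse genes described here are Saa1, Saa2, Saa3, Orm1, Orm2, Lcn2, Hp, Hpx, Apcs and Serpina3n. They were chosen by name, with earlier results of these data known. Every transcript of the deposited table with 1 of these gene symbols was taken, and its FPKM (fragments for each kilobase of a transcript, relative to library size) was added up per gene and liver. They are 10 of the 24296 gene symbols in the table, and all 10 were among the 13158 genes with a mean of at least 0.5 FPKM that were tested.

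RNA from 12 livers of male C57/BL6N mice was sequenced, 3 for each of 4 groups. Mice of the model group were injected in the abdomen with carbon tetrachloride (CCl4) in olive oil, a solvent that hepatocytes turn into a damaging radical and that leads to liver fibrosis. There were 2 injections a week over 8 weeks, each of 5 mL/kg. The silibinin group and the phloridzin group received the same CCl4 and, from week 5, silibinin, a flavonolignan of milk thistle, or phloridzin, a plant glucoside that blocks glucose transport, at its high dose of 40 mg/kg. Silibinin stood as the reference drug in a study of phloridzin against fibrosis. The livers of the control group are labelled as wild type, without CCl4. The age of the mice, the injection given to the controls and the time from the last injection to sampling are not given in the sources used here. Depth, read from the steps between low values, was between 83.7 and 110.9 M steps per library, and a step may not be a whole fragment. The limma p-values below measure only the spread between the 3 livers of a group, pooled over all groups in the fit, which are 4 in the main fit. Permutation p-values of correlations come from reordering the 12 livers.

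The acute phase response of the liver is set off by cytokines. Those of the interleukin 6 family act through the shared receptor Il6st, Jak kinases and Stat3, while interleukin 1 and tumour necrosis factor act through NF-kB, and C/EBP factors bind to many of the same promoters. Positive acute phase genes are switched on by these signals, negative ones such as albumin are turned down, and Socs3 is a feedback inhibitor of the Stat3 branch.

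The 10 genes were abundant and differed widely between livers of the same group. Hpx had a mean of 4449 FPKM over the 12 livers and was in place 4 among all gene symbols, Hp had 2439 FPKM (place 16) and Saa1 had 926 FPKM (place 38). Saa3 was the lowest at 33.3 FPKM (place 1133). The members together made up between 1.32% of the gene FPKM in silibinin liver 2 and 7.1% in control liver 3. Control liver 3 had the highest value of the 12 for 7 of the 10 genes, phloridzin liver 3 for the other 3, and silibinin liver 2 had the lowest value for 4.

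**Figure D1:**
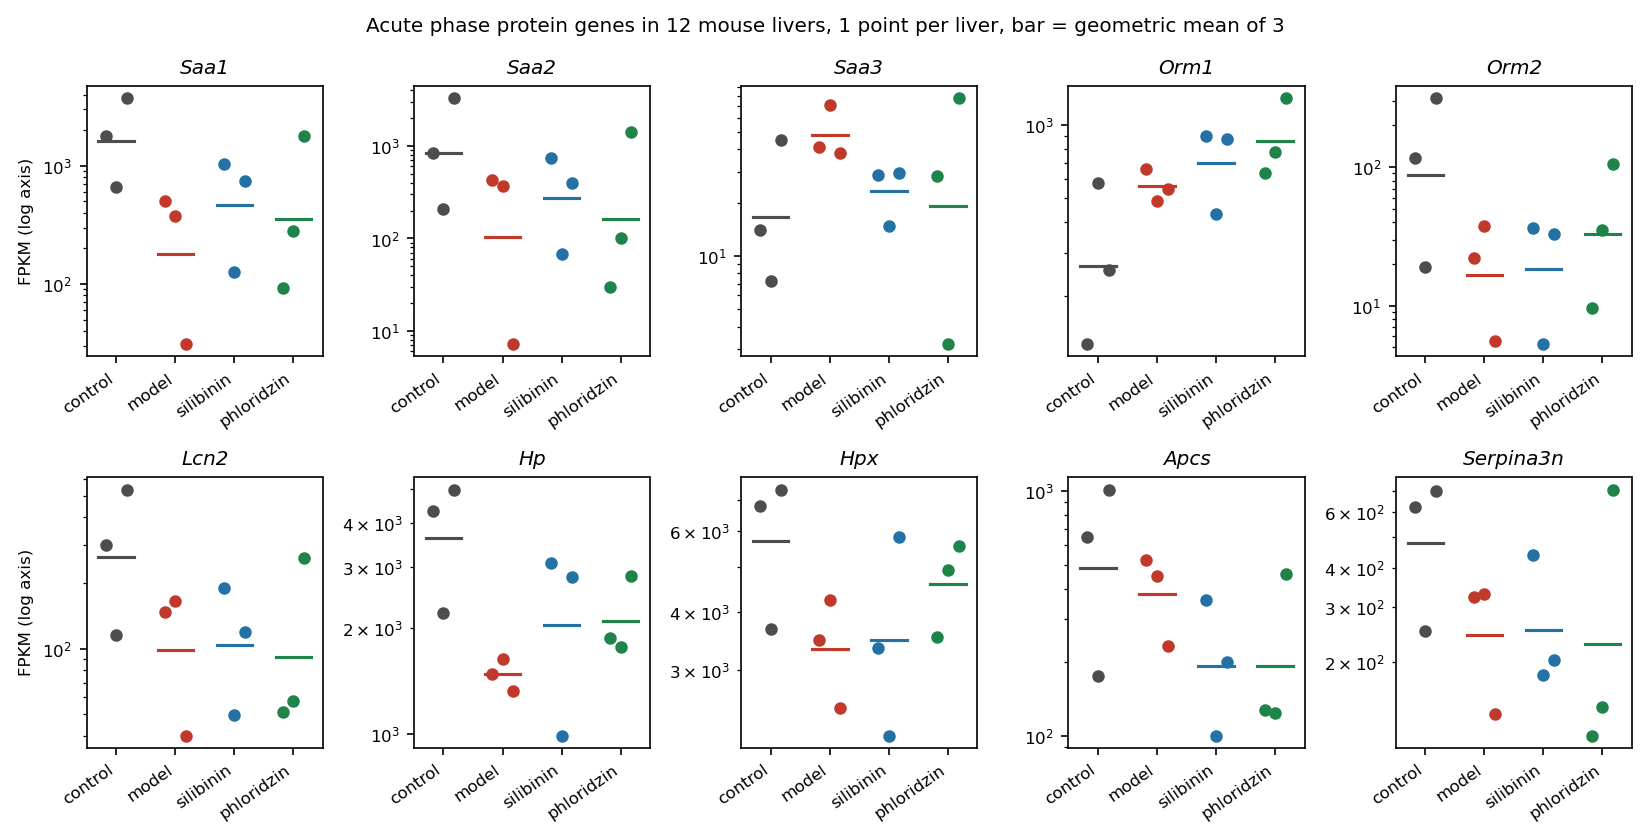
FPKM of the 10 acute phase protein genes on a log axis, 1 point per liver, with a bar at the geometric mean of the 3 livers of each group. For most genes the points of a group are spread over much of the range of the plot, as for Saa2 in the model group (7.2 to 427 FPKM).

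Promoter sequences are shown for 4 genes whose RNA levels moved together from liver to liver (Saa1, Saa2, Orm2 and Lcn2) and for Saa3, a gene of the same family as the first 2 with another pattern. They are RefSeq promoters of build GRCm38.p6, from 250 bases before to 50 bases after the start that RefSeq gives. Of the 10 genes 8 were matched (Saa1, Saa2, Saa3, Orm2, Lcn2, Hpx, Apcs and Serpina3n). For Saa3, Lcn2, Hpx, Apcs and Serpina3n the RefSeq start is not that of the leading transcript of the FPKM table. The positions are chr7:46742931-46743230 on the minus strand for Saa1, chr7:46751583-46751882 on the plus strand for Saa2, chr4:63362199-63362498 on the plus strand for Orm2, chr2:32387690-32387989 on the minus strand for Lcn2 and chr7:46715627-46715926 on the minus strand for Saa3. Each is written 5′ to 3′, and capitals mark matches to the C/EBP-type motif TTNCNNAA on either strand.
Saa1: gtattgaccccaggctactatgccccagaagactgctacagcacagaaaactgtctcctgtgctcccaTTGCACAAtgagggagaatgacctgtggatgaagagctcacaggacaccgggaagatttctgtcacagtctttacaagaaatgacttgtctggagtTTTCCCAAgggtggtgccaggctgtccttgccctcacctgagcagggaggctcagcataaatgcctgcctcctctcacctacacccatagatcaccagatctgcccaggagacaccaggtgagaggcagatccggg
Saa2: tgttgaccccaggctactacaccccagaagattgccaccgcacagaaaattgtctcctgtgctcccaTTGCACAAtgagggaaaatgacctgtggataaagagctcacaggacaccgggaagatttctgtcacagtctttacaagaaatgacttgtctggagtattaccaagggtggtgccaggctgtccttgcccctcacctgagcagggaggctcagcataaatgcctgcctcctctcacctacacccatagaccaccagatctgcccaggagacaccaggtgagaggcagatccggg
Orm2: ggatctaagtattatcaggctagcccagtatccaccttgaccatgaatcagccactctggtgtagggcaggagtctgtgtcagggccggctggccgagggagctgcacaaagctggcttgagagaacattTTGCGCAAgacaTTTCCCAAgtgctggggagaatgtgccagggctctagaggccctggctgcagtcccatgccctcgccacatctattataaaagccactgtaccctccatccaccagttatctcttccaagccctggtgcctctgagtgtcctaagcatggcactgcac
Lcn2: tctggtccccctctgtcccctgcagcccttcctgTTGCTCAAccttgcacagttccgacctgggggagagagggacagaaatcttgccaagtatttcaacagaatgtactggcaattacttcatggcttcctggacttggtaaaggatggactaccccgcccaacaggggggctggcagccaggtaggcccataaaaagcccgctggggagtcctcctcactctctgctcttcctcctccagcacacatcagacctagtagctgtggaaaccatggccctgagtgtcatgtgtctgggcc
Saa3: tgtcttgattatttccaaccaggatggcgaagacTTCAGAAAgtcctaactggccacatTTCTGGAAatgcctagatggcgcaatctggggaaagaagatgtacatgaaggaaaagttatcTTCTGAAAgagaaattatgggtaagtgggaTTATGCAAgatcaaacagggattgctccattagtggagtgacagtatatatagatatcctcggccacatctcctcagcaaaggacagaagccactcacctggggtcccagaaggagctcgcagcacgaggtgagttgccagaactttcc

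The C/EBP-type motif was found in 7 of the 8 promoters, all but that of Apcs, and in 40.7% of the 32851 promoters of the table. The STAT3-type motif TTCNNNGAA was found in 1 of the 8, that of Apcs, and in 8.3% of all promoters. The NF-kB consensus was found in 0 of the 8 and in 8.46% of all. Its letters are not given in the sources used here, so the 0 does not cover looser forms of that site, which were not searched. Both strands were searched, and no match of 1 motif overlapped a match of another in these 8. The promoters of Saa1 and Saa2 hold the match TTGCACAA at nearly the same place, 182 to 175 and 183 to 176 bases before the start. Orm2 holds TTGCGCAA, which matches on both strands, 120 to 113 bases before the start. A match is a description of the letters and not of binding.

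The serum amyloid A proteins are apolipoproteins of high density lipoprotein. Saa1 (ENSMUSG00000074115) was at 1776, 656 and 3717 FPKM in the control livers 1, 2 and 3, and at 504, 376 and 31.0 in the model livers. It was at 1042, 127 and 746 FPKM in the silibinin livers and at 91.6, 280 and 1768 in the phloridzin livers. All 3 model livers were below all 3 control livers, and model liver 3 was the lowest of the 12. Saa2 (ENSMUSG00000057465) had the widest range of the 10, 455-fold, with 846, 207 and 3276 FPKM in the control livers and 427, 370 and 7.2 in the model livers. Its values were 743, 67.1 and 402 FPKM in the silibinin livers and 29.6, 100 and 1408 in the phloridzin livers. In model liver 3, which sets the low end of the range, the leading transcript of Saa2 was listed at 0 FPKM and another protein-coding transcript at 7.061. The order of livers for Saa2 was close to that for Saa1, and its groups overlapped. The leading transcripts of Saa1 and Saa2 share 93.9% of their aligned bases, so the split of reads between them is uncertain.

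Saa3 (ENSMUSG00000040026), which macrophages and fat cells also make, had another pattern. It was at 14.1, 7.23 and 45.4 FPKM in the control livers and at 41.5, 71.3 and 38.3 in the model livers. The silibinin livers were at 28.6, 14.8 and 29.6 FPKM and the phloridzin livers at 28.4, 3.19 and 77.7. All 3 silibinin livers were below all 3 model livers, while the phloridzin livers held both the lowest and the highest value of the 12. Its leading transcript shares 64.6% of aligned bases with that of Saa1.

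The orosomucoids Orm1 and Orm2 encode alpha-1-acid glycoproteins, which carry small lipophilic compounds in plasma. Orm1 (ENSMUSG00000039196) was at 127, 578 and 255 FPKM in the control livers and at 659, 488 and 546 in the model livers. The silibinin livers had 903, 431 and 873 FPKM and the phloridzin livers 638, 775 and 1285. All 3 phloridzin livers were above every control liver, while the model and silibinin livers overlapped with control liver 2. Orm2 (ENSMUSG00000061540) was nearer to Saa1 in its order of livers, with 116, 19.0 and 313 FPKM in the control livers and 22.1, 37.9 and 5.57 in the model livers. It was at 36.1, 5.28 and 32.8 FPKM in the silibinin livers and at 9.69, 35.1 and 105 in the phloridzin livers. The control livers held the highest value and also a value below 2 of the model livers. The leading transcripts of Orm1 and Orm2 are 91.0% identical, so their split is uncertain as well.

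Lcn2 (ENSMUSG00000026822) encodes lipocalin 2, which binds bacterial siderophores and is also a granule protein of neutrophils. It was at 298, 115 and 535 FPKM in the control livers and at 147.1, 165.2 and 39.97 in the model livers. The silibinin livers were at 189, 49.6 and 119 FPKM and the phloridzin livers at 51.2, 57.9 and 261. The groups overlapped, with control liver 2 below 2 of the model livers.

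Haptoglobin and hemopexin clear free haemoglobin and free haem from plasma. Hp (ENSMUSG00000031722, chr8:109575128-109579172, minus strand) was at 4314, 2214 and 4976 FPKM in the control livers and at 1479, 1637 and 1327 in the model livers. It was at 3075, 987 and 2803 FPKM in the silibinin livers and at 1871, 1766 and 2820 in the phloridzin livers. The 3 model livers lay close together, below every control and every phloridzin liver. Hpx (ENSMUSG00000030895) was at 6793, 3682 and 7349 FPKM in the control livers, between 2482 and 4251 in the model livers, between 2163 and 5824 in the silibinin livers and between 3529 and 5558 in the phloridzin livers.

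Apcs (ENSMUSG00000026542) encodes serum amyloid P component, the pentraxin that responds in the mouse. It was at 652, 176 and 1012 FPKM in the control livers and between 233 and 524 in the model livers, with 100 to 360 in the silibinin livers and 124 to 460 in the phloridzin livers. Serpina3n (ENSMUSG00000021091) encodes a serine protease inhibitor related to antichymotrypsin. It ranged from 252 to 701 FPKM in the control livers, from 137 to 330 in the model livers, from 183 to 439 in the silibinin livers and from 117 to 707 in the phloridzin livers. For both genes every pair of groups overlapped.

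With CCl4, haptoglobin RNA fell, and no other member passed the test. The mean of Hp was 3835 ± 1442 FPKM (SD, n = 3) in the control group and 1481 ± 155 (SD, n = 3) in the model group. Its log2 fold change, on the scale of log2(FPKM + 1), was -1.30 with a standard error of 0.45 (95% confidence interval -2.29 to -0.30, adjusted p = 0.046 by limma with Benjamini-Hochberg adjustment over all genes tested). Tests were two-sided, and a call needed an adjusted p under 0.05 and a change of more than 1 log2 unit. Of all genes tested, 9.42% were called higher and 1.08% lower in the model group, against 0 and 1 of the 10 members. The median log2 fold change of the members was -1.14, beside 0.34 over all genes tested. Scaling the livers by median ratios shifted the median of all genes by -0.323 and changed the calls from 1240 higher and 142 lower to 529 higher and 453 lower, and Hp then had -1.74 (adjusted p = 0.026 by limma).

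The call of Hp changed when single livers were left out. Its log2 fold change was -1.17 without control liver 1 (adjusted p = 0.12 by limma), -1.07 without control liver 3 (0.14), and -1.30, -1.37 and -1.22 without the model livers 1, 2 and 3 (0.095, 0.082 and 0.11). It was -1.30 without silibinin liver 3 (0.05, at or above the threshold) and without phloridzin liver 2 (0.057). Without control liver 2, 3 members were called: Hp (-1.65, adjusted p = 0.027), Orm1 (log2 fold change 1.63, adjusted p = 0.022 by limma) and Orm2 (-3.41, adjusted p = 0.048). In that fit 1131 of the 13158 genes tested were called higher and 116 lower. At the same -1.30, the call of Hp was also lost with no filter on low values (adjusted p = 0.11), when the highest transcript stood for the gene (0.067) and with protein-coding transcripts only (0.056), which was chosen after seeing the data.

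Of the other members, 7 had a log2 fold change below 0 in the model group and Saa3 and Orm1 above 0. Saa1 had a mean of 2050.0 ± 1549 FPKM (SD, n = 3) in the control livers and 304 ± 245 (SD, n = 3) in the model livers, for a log2 fold change of -3.16 with an adjusted p of 0.086 by limma. Saa2 was at -2.93 with a 95% confidence interval from -6.92 to 1.06, and Orm2 at -2.32 from -4.89 to 0.25. For these genes a large fall and no change both lay near or inside the interval. With livers left out in turn, Saa1 was at -3.89 to -1.90, Saa2 at -3.93 to -1.06 and Orm2 at -3.41 to -1.42. Lcn2 was at -1.40, Serpina3n at -0.97, Hpx at -0.78 and Apcs at -0.36, with adjusted p between 0.17 and 0.73 by limma. Saa3 was at 1.46 (-0.59 to 3.52) and Orm1 at 1.07 (-0.03 to 2.18). At an unadjusted p under 0.05, 2 of the 10 members passed, Hp and Saa1. How many of all genes passed at that unadjusted level was not counted, here or in the comparisons below. At the stricter adjusted p under 0.05 by limma with no fold cutoff, 4094 of the 13158 genes tested were higher and 500 lower. When Orm1, Orm2 and Orm3 were summed, the log2 fold change of the sum was 0.40, with Orm1 at a mean of 630 FPKM over the 12 livers and Orm2 at 61.4. In bulk tissue, fewer cells of a type and less RNA per cell cannot be told apart.

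**Figure D2:**
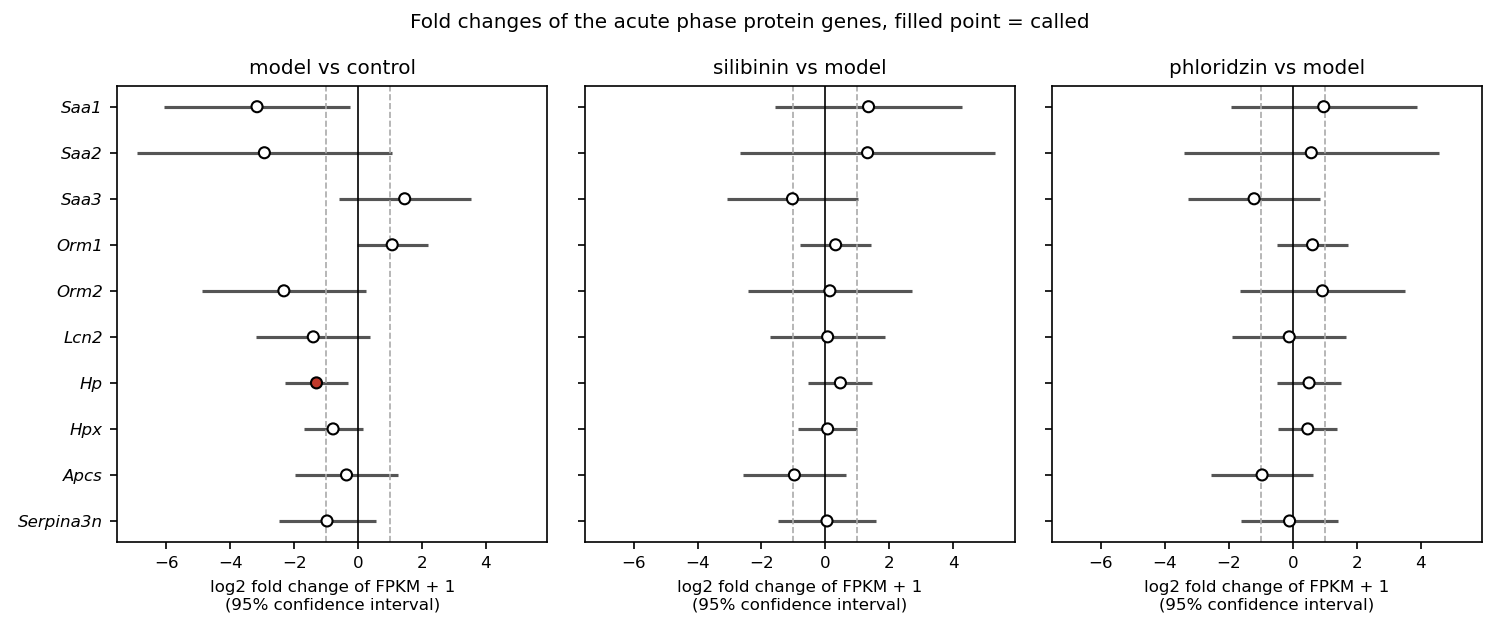
Log2 fold change of FPKM + 1 for each acute phase protein gene in 3 comparisons, with 95% confidence intervals from limma, and dashed lines at -1 and 1. The filled point is Hp in model against control (-1.30), and the intervals of the other genes are open points, the widest that of Saa2.

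Treatment with silibinin during CCl4 was compared with CCl4 alone to ask whether the drug moved these genes. No member was called by limma in silibinin against model, none passed at an unadjusted p under 0.05, and voom on recovered fragments called 0. Of all genes tested, 0.745% were called higher and 3.25% lower. The log2 fold changes lay between -1.03 for Saa3 and 1.35 for Saa1, with a median of 0.11 for the members and -0.15 over all genes. With livers left out in turn, that of Saa1 ranged from 0.09 to 2.27. Saa3 was at 50.4 ± 18.2 FPKM (SD, n = 3) in the model group and 24.3 ± 8.29 (SD, n = 3) in the silibinin group, groups that did not overlap, with an adjusted p of 0.51 by limma. Hp was at 0.47 (-0.53 to 1.46) and Apcs at -0.97 (-2.58 to 0.64). The signs of Lcn2, Hpx and Serpina3n, at 0.07, 0.07 and 0.05, turned with voom.

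Phloridzin, the drug under study, was set against the same model livers. No member was called by limma, none passed at an unadjusted p under 0.05, and voom called 0, while 0.6% of all genes were called higher and 2.92% lower. Hp was at 2152 ± 580 FPKM (SD, n = 3) in the phloridzin group, with every liver above every model liver, a log2 fold change of 0.51 (-0.48 to 1.51) and an adjusted p of 0.5 by limma. Saa3 was at -1.21 (-3.27 to 0.84), Apcs at -0.96 (-2.57 to 0.64), Saa1 at 0.97 (-1.94 to 3.89) and Orm2 at 0.93 (-1.64 to 3.5). With livers left out in turn, Saa3 was at -2.16 to -0.04 and Orm2 at 0.12 to 1.77. Lcn2 and Serpina3n, at -0.11 and -0.10, were above 0 after scaling by median ratios. These intervals include changes of more than 1 log2 unit in either direction for Saa1, Saa2, Orm2, Lcn2 and Serpina3n.

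The drugs did not differ in any member by the test. In phloridzin against silibinin, 0 members were called by limma, 0 passed at an unadjusted p under 0.05, and voom called 0, with 0.0076% of all genes called higher and 0.0152% lower. The log2 fold changes ran from -0.74 for Saa2 to 0.79 for Orm2, and the intervals were 0.92 to 3.99 wide to each side, so that differences of that size cannot be told from 0 here.

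Against the control group, Orm1 had the lowest adjusted p of the members in both treated groups, without a call. In phloridzin against control its log2 fold change was 1.69 (0.58 to 2.80, adjusted p = 0.065 by limma), with 899 ± 341 FPKM (SD, n = 3) beside 320 ± 232 (SD, n = 3), and without control liver 2 it was called (2.25, adjusted p = 0.032). In silibinin against control it was at 1.39 (0.28 to 2.5, adjusted p = 0.14 by limma). No member was called by limma in either comparison, 1 passed in each at an unadjusted p under 0.05, which was Orm1, and voom called 0. At the stricter adjusted p under 0.05 by limma with no fold cutoff, 604 of the 13158 genes tested were higher and 57 lower with silibinin. With phloridzin the counts were 988 and 63. Of all genes, 1.74% were called higher and 0.243% lower with silibinin, and 2.74% higher and 0.289% lower with phloridzin. The model, silibinin and phloridzin groups were set against the same control livers, so these values are not independent.

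The spread inside the groups was above the median of all genes for each of the 10 members. The residual standard deviation of log2(FPKM + 1) around the group means was 2.53 for Saa2, 1.85 for Saa1, 1.63 for Orm2, 1.3 for Saa3, 1.13 for Lcn2 and 1.01 for Apcs. It was 0.95 for Serpina3n, 0.68 for Orm1, 0.59 for Hp and 0.52 for Hpx. The median over the 13158 genes tested was 0.24, and 7 members were above the 95th percentile of 0.78. Saa2 was at percentile 99.9 and Hpx, the least variable member, at 86.4.

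The levels of most members moved together from liver to liver. Pearson's r of log2(FPKM + 1) over the 12 livers was computed for all 45 pairs of members, with permutation p-values adjusted by the Benjamini-Hochberg method over the 45. At an adjusted p under 0.05 there were 26 pairs by Pearson's r and 25 by Spearman's rho, and none of the 26 held Orm1 or Saa3. The same correlations after subtracting each group's mean, with exact permutation of livers inside the groups, gave 27 pairs. Over all pairs the median r was 0.73, and 0.74 after subtracting group means.

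Saa1 and Saa2 had r = 0.98 (permutation p = 1e-05, adjusted 9e-05) and rho = 0.96 (permutation p = 1e-05, adjusted 0.00015), where 1e-05 is the smallest p that 100000 resamples give. Without the 2 livers farthest from the median of Saa1, r was 0.95, and after subtracting group means it was 0.99 (exact permutation p = 0.00077, adjusted 0.0063). For Lcn2 and Serpina3n, which share no family, r was 0.95 (permutation p = 1e-05, adjusted 9e-05), rho 0.94 (permutation p = 2e-05, adjusted 0.00018), r without 2 livers 0.95 and r after subtracting group means 0.94 (exact permutation p = 0.00077). For Hp and Hpx, r was 0.84 (permutation p = 0.00076, adjusted 0.0021), rho 0.74 (permutation p = 0.0083, adjusted 0.019), r without 2 livers 0.71 and r after subtracting group means 0.81 (exact permutation p = 0.019). These 3 relations were seen inside the groups as well as over all livers.

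Over all 12 livers Orm1 and Saa3 stood apart. For Orm1 the r with the other 9 members ran from -0.39 to 0.15, and 0 of the 9 pairs passed by the permutation test. With Orm2, its close relative, r was -0.30 (permutation p = 0.35, adjusted 0.44), rho was -0.05 (permutation p = 0.89, adjusted 0.93), and r after subtracting group means was 0.04 (exact permutation p = 0.94). Without the 2 livers farthest from the median of Orm1, control livers 1 and 3, r was 0.78, so the value over all livers rests on those 2. Without them the r of Orm1 with the other 9 members ran from 0.19 for Saa3 to 0.82 for Hp, with 0.68 for Saa1, an alternative chosen after the data were seen. For Saa3 the r over all livers ran from 0.07 to 0.56, with a median of 0.21. After subtracting group means it ran from 0.09 for Orm1 to 0.73 for Apcs, with a median of 0.57, and 1 of its 9 pairs passed, the pair with Hp (0.62, exact permutation p = 0.0031, adjusted 0.0073).

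**Figure D3:**
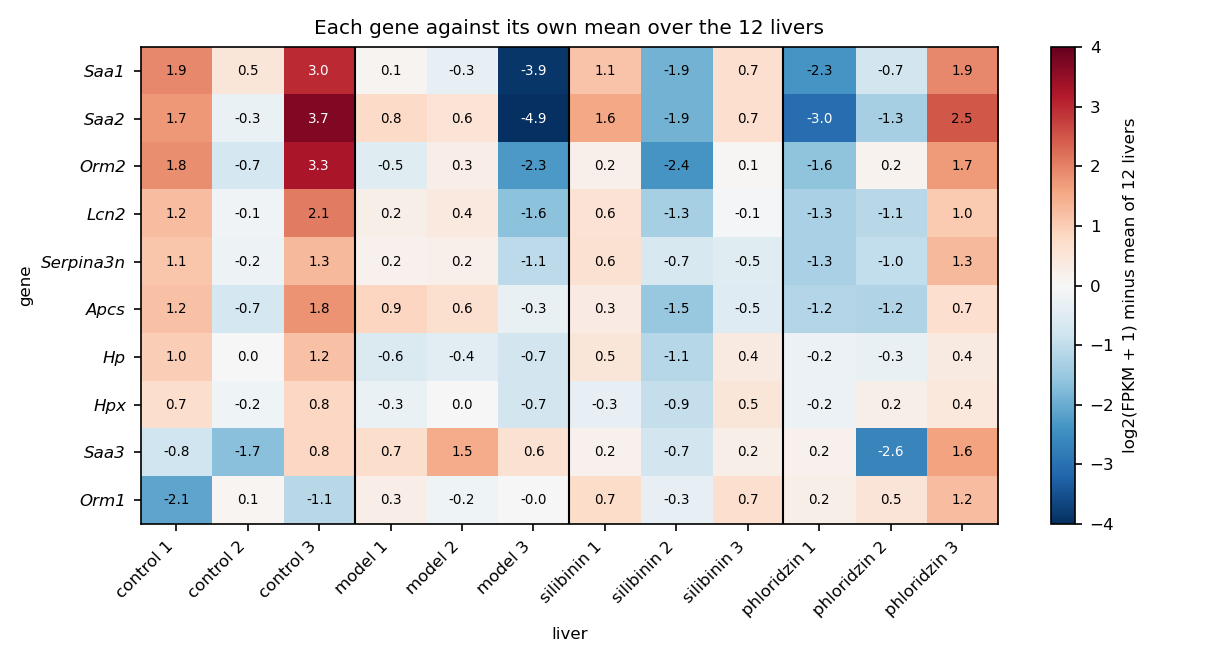
Log2(FPKM + 1) of each acute phase protein gene minus its mean over the 12 livers, with livers in columns and vertical lines between groups. Of the upper 8 genes, 7 are highest in control 3, and Serpina3n is highest in phloridzin 3. Saa1, Saa2 and Lcn2 are lowest in model 3, Orm2, Hp, Hpx and Apcs in silibinin 2, and Serpina3n in phloridzin 1.

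Some of the genes nearest to the members in pattern were members or other acute phase genes, and others were not. Whether this was more than for other genes was not tested. Among the 11610 other genes with a mean of at least 1 FPKM, the 3 with the highest Pearson's r over the 12 livers were Saa2 (0.978), Qsox1 (0.941) and Lcn2 (0.939) for Saa1. They were Serpina3n (0.952), Saa2 (0.951) and the fibrinogen chain gene Fgb (0.946) for Lcn2, and Lcn2 (0.952), Fgb (0.937) and Fgg (0.926) for Serpina3n. Saa2 had Saa1 (0.978), Lcn2 (0.951) and Fgb (0.940), and Orm2 had Dap (0.948), Lcn2 (0.921) and Mpnd (0.914). For Hp they were Fgl1 (0.926), Orm2 (0.871) and Enho (0.863), for Hpx Gabbr2 (0.915), Mpnd (0.914) and Orm2 (0.907), and for Apcs Slc39a1 (0.896), Lcn2 (0.889) and Serpina3n (0.867). No member was among the nearest 3 of Saa3, which were Zbtb20 (0.888), Zfp64 (0.874) and Meaf6 (0.861), or of Orm1, which were Glg1 (0.864), Ulk2 (0.846) and Nudt4 (0.843).

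Genes of the upstream pathway also differed with CCl4, and how many were called depended on scaling. Of all genes tested, 9.42% were called higher and 1.08% lower, or 529 and 453 genes after scaling by median ratios. Of 12 cytokine genes of the response 11 were in the table, 4 were tested, and 3 were called higher in the model group, or 2 after scaling by median ratios. Il1b, which encodes interleukin 1 beta, was at 1.45, 0.959 and 0.86 FPKM in the control livers and at 5.65, 12.9 and 11.3 in the model livers, a log2 fold change of 2.33 (adjusted p = 0.0015 by limma). Clcf1, a cytokine of the interleukin 6 family, rose by 1.53 (adjusted p = 0.00016), and the other was Il1a at 1.21 (adjusted p = 0.020). The call of Il1a was lost without control liver 2 (adjusted p = 0.053), control liver 3 (0.055), model liver 2 (0.076) or model liver 3 (0.064). Il6 was under the filter, at 0 to 0.0162 FPKM in the control livers and 0.146 to 0.36 in the model livers. Tnf was also under it, at 0.0464 to 0.09 FPKM in the control livers and 0.802 to 1.52 in the model livers.

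Among 19 receptors and adaptors, 3 were called higher with CCl4, and after scaling by median ratios 1 higher and 1 lower, while 5 were called higher without control liver 3 and 1 lower without control liver 1. Osmr, the receptor chain for oncostatin M, was at 2.47 to 2.79 FPKM in the control livers and 11.3 to 19.4 in the model livers, with a log2 fold change of 2.12 (adjusted p = 8.4e-05 by limma). Il6st was at 0.84 (adjusted p = 0.0061), under the fold cutoff, and it was called without control liver 3 (1.01) or when the highest transcript stood for the gene (1.06). Il6ra, the receptor for interleukin 6 itself, was at -0.62 (adjusted p = 0.11), and after scaling by median ratios it was called lower at -1.02 (adjusted p = 0.025).

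Of 17 transcription factors tested, 7 were called higher in the model group, and after scaling by median ratios 5 higher and 1 lower, Cebpa, which was named after its values were seen. Jun, a part of AP-1, was at 1.4 to 1.84 FPKM in the control livers and 15.5 to 22.8 in the model livers (log2 fold change 2.89, adjusted p = 1e-05 by limma). Fos rose by 2.47 and the NF-kB subunit gene Relb by 1.57. Stat3 was at 0.25 (adjusted p = 0.44), and below 0 after scaling by median ratios (-0.20) and with voom (-0.06). Cebpb was at 0.78 (adjusted p = 0.019) and Cebpd at 0.77 (adjusted p = 0.035), both under the fold cutoff. Cebpa, a C/EBP factor of mature hepatocytes, was at 154, 157 and 134 FPKM in the control livers and at 92.0, 64.6 and 108 in the model livers. Its log2 fold change was -0.77 (adjusted p = 0.010 by limma), also under the cutoff, and -1.21 (adjusted p = 0.00083) after scaling by median ratios. With the drugs it was at 0.76 for silibinin (adjusted p = 0.023) and 0.63 for phloridzin (adjusted p = 0.052) against model, without a call.

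Of 17 feedback inhibitors tested, 5 were called higher in the model group, or 2 after scaling by median ratios and 3 without model liver 2. Socs3 was at 3.11 to 4.03 FPKM in the control livers and at 16.7, 21.2 and 5.82 in the model livers, a log2 fold change of 1.59 (adjusted p = 0.011 by limma), which was 0.051 after scaling by median ratios. Bcl3, an atypical inhibitor of NF-kB, rose by 1.65 (adjusted p = 0.0032). Of 13 ligand partners and clearance receptors tested, 4 were called higher, and after scaling by median ratios 1 higher and 2 lower. The 2, named after their values were seen, were Scarb1, a receptor for high density lipoprotein, at -1.15 (adjusted p = 0.021 by limma), and the haemoglobin gene Hba-a1 at -1.09 (adjusted p = 0.030). Hmox1, which breaks down haem, rose by 1.84 (adjusted p = 0.0014). Cd163, the receptor for haptoglobin bound to haemoglobin, was at -0.47 (adjusted p = 0.19), and Lrp1, the receptor for hemopexin bound to haem, at -0.34 (adjusted p = 0.48).

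Other positive acute phase genes moved in both directions with CCl4. Of 23 tested, 4 were called higher and 3 lower, or 3 and 3 after scaling by median ratios, and the median log2 fold change was -0.46. Of all genes tested, 9.42% were called higher and 1.08% lower. Cd14, a receptor for bacterial lipopolysaccharide, rose by 3.53 (adjusted p = 6.3e-06 by limma), and Il1rn, the interleukin 1 receptor antagonist, by 1.84 (adjusted p = 0.00018). Hamp, which encodes the iron hormone hepcidin, was at 1.18 (adjusted p = 0.015), which was 0.73 (adjusted p = 0.16) after scaling by median ratios.

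The 3 that were called lower were Lrg1, Fgl1 and Saa4. Lrg1 was at 1276, 779 and 1339 FPKM in the control livers and at 476, 69.3 and 207 in the model livers (log2 fold change -2.53, adjusted p = 0.022 by limma). Fgl1 was at -1.47 (adjusted p = 0.017) and Saa4, a constitutive member of the amyloid A family, at -1.29 (adjusted p = 0.030). The call of Lrg1 was lost without control liver 1 (adjusted p = 0.061), control liver 3 (0.065) or model liver 2 (0.077), and that of Fgl1 without control liver 3 (0.063) or with voom (0.054). The call of Saa4 was lost without control liver 1 (0.06), control liver 3 (0.098) or model liver 3 (0.1), with no filter on low values (0.052) and with the replicate number as a block (0.051). Of 12 negative acute phase genes 0 were called in either direction by limma or by voom, 2 were lower at an unadjusted p under 0.05, and 2 were called lower after scaling by median ratios. The 2, named after their values were seen, were the transferrin gene Trf at -1.73 (adjusted p = 0.037 by limma) and Apoa2 at -1.2 (adjusted p = 0.0054), and Trf was also called without control liver 2 (0.041) or model liver 1 (0.019). The median log2 fold change of the 12 was 0.04.

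Some of these upstream genes were lower in the treated groups. Of the 17 transcription factors, 5 were called lower in silibinin against model and 4 in phloridzin against model. Among all genes 3.25% and 2.92% were called lower in these comparisons. After scaling by median ratios 3 of the factors were called lower in each, beside 241 and 240 of the 13158 genes tested. Without model liver 2 there were also 3 with silibinin. Of the 19 receptors and adaptors 1 was called lower with each drug, also after scaling. Of the 4 cytokines 1, Il1b, was called lower with each drug, and after scaling 0 with silibinin and 1 with phloridzin. With silibinin Il1b was at -1.57 (adjusted p = 0.022 by limma), and its call was lost after scaling (0.056), without model livers 2 or 3 (0.084 and 0.069), without silibinin livers 1 or 2 (0.08 and 0.077), with only the 2 groups compared (0.052) and when the highest transcript stood for the gene (0.057). With phloridzin it was at -1.67 (adjusted p = 0.019), and its call was lost without model livers 2 or 3 (0.073 and 0.059), without phloridzin liver 3 (0.068), with only the 2 groups compared (0.07), with the highest transcript (0.067) and with protein-coding transcripts only (0.053). The count of cytokines with silibinin was 0 without silibinin livers 1 or 2 and 2 without model liver 1 or silibinin liver 3, and with phloridzin it was 0 without model livers 2 or 3 or phloridzin liver 3. Of the 17 feedback inhibitors 3 were called lower with each drug, and after scaling 0 with silibinin and 1 with phloridzin. With silibinin their count was 0 without model liver 2 or silibinin livers 1 or 3 and 1 without model liver 1 or silibinin liver 2, and with phloridzin it was 1 without model liver 2 or phloridzin livers 1 or 3. The log2 fold change of Jun was -2.0 with silibinin (adjusted p = 0.00013 by limma) and -1.81 with phloridzin (adjusted p = 0.00027), and that of Fos was -2.19 and -1.91. Osmr was at -1.37 with silibinin and -1.39 with phloridzin (adjusted p = 0.0015 for both). Cd14 was at -2.72 and -2.87, and Il1rn at -1.46 and -1.47. These 5 genes were called with both drugs under each alternative in which they were tested. Of the 23 other positive acute phase genes, 4 were called lower with silibinin and 3 with phloridzin, also after scaling. Hamp was called lower with silibinin (-1.7, adjusted p = 0.0058 by limma) and not with phloridzin (-1.01, adjusted p = 0.056). Il1b was at 1.88, 1.63 and 4.73 FPKM in the silibinin livers and at 1.49, 4.33 and 1.65 in the phloridzin livers, all below the model livers. The comparisons share the model livers.

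Cebpb, whose product binds C/EBP sites, was at 103, 172 and 98.8 FPKM in the model livers, at 45.8 to 62.2 in the silibinin livers and at 50.3 to 59.3 in the phloridzin livers. Its log2 fold change was -1.13 with silibinin (adjusted p = 0.0078 by limma) and -1.12 with phloridzin (adjusted p = 0.0085). Without model liver 2 these were -0.87 and -0.86, under the fold cutoff, as they were after scaling by median ratios (-0.91 and -0.94), and with only the 2 groups compared in the fit the adjusted p with phloridzin was 0.056. Socs3 was at -1.39 with silibinin (adjusted p = 0.040) and -1.54 with phloridzin (adjusted p = 0.029). Its call with silibinin was lost without control livers 1, 2 and 3 (adjusted p = 0.055, 0.056 and 0.054), model livers 1 and 2 (0.12 and 0.14), silibinin livers 1, 2 and 3 (0.072, 0.086 and 0.12) or phloridzin liver 3 (0.051). It was also lost after scaling by median ratios (0.083), with no filter on low values (0.07), with only the 2 groups compared in the fit (0.092), when the highest transcript stood for the gene (0.066) and with protein-coding transcripts only (0.052). With phloridzin it was lost without model livers 1 and 2 (0.096 and 0.099) or phloridzin livers 1, 2 and 3 (0.07, 0.052 and 0.057), after scaling by median ratios (0.056), with no filter (0.052) or with only the 2 groups compared (0.12). Lrg1, Fgl1 and Saa4 were not called with either drug.

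**Figure D4:**
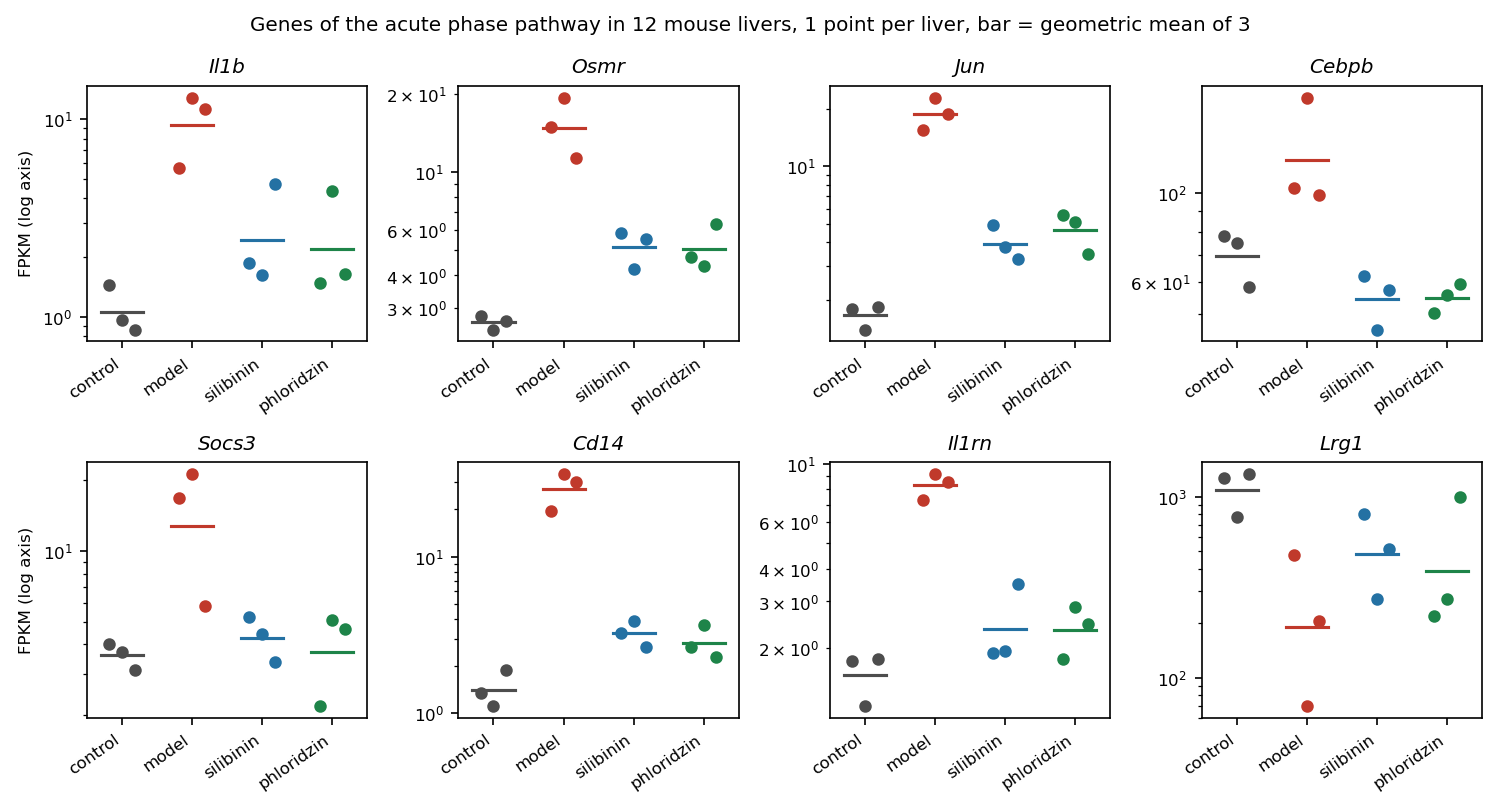
FPKM of 8 genes of the acute phase pathway on log axes, 1 point per liver, with a bar at the geometric mean of the 3 livers of each group. Il1b, Osmr, Jun, Cebpb, Socs3, Cd14 and Il1rn have their highest group in the model livers, and Lrg1 has its lowest there.

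The ratio of retained-intron to protein-coding FPKM differed between the groups for 3 members. This comparison was chosen after the values were seen, and spliced transcripts that keep an intron and unspliced RNA assigned to them cannot be told apart in the table. Saa1, Saa2 and Lcn2 are the members with such transcripts in the table. As a percentage of the protein-coding FPKM of the gene, retained-intron FPKM of Saa1 was 0.169, 0.0679 and 0.0851 in the control livers and 2.51, 7.68 and 0.783 in the model livers. It was at most 0.143 in the silibinin livers and 0.127 in the phloridzin livers. For Saa2 it was 0.255, 0.122 and 0.115 in the control livers, 3.48, 7.51 and 2.03 in the model livers, at most 0.191 with silibinin and at most 0.0686 with phloridzin. All 3 model livers were above the other 9 livers, including model liver 3, where the genes themselves were at their lowest. The retained-intron FPKM itself overlapped between the groups. For Saa1 it was 2.99, 0.445 and 3.16 FPKM in the control livers and 12.3, 26.8 and 0.241 in the model livers, and for Saa2 it was 2.15, 0.253 and 3.78 FPKM in the control livers and 14.3, 25.8 and 0.143 in the model livers. In model liver 3 both were below every control liver, with protein-coding FPKM at 30.7 for Saa1 and 7.06 for Saa2. For Lcn2 the percentage was 1.67 to 2.21 in the control livers, 7.56 to 11.4 in the model livers, 1.84 to 3.25 with silibinin and 2.70 to 3.74 with phloridzin. Its retained-intron FPKM was 6.37, 2.2 and 8.77 in the control livers and 12.4, 16.4 and 2.69 in the model livers.

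The log2 ratio of retained-intron to protein-coding FPKM, with 0.1 FPKM added to each, was fitted by limma for the 4472 genes with a mean of at least 0.5 FPKM of both kinds. In model against control it rose by 4.68 for Saa1 (adjusted p = 0.025), by 4.67 for Saa2 (adjusted p = 0.0084) and by 2.26 for Lcn2 (adjusted p = 0.0084). All 3 were called higher, where 0.157% of the genes were called higher and 0.0447% lower. In silibinin against model it fell with changes of -4.49 for Saa1 (adjusted p = 0.042), -4.76 for Saa2 (adjusted p = 0.014) and -1.89 for Lcn2 (adjusted p = 0.037), where 0.0224% of the genes were called higher and 0.157% lower. In phloridzin against model it fell for Saa2, with a change of -4.75 (adjusted p = 0.015), where no other member was called and 0% were called higher and 0.0447% lower. Saa1 was there at -4.73 (adjusted p = 0.062) and Lcn2 at -1.56 (adjusted p = 0.10).

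The ratio also moved a little over all genes. Its median over the 4472 genes was -0.96 in model liver 1 and between -1.78 and -1.44 in the other 11 livers, and its median change in model against control was 0.28. Subtracting the median of each liver left 4.44 for Saa1 (adjusted p = 0.046 by limma), 4.43 for Saa2 (0.017) and 2.02 for Lcn2 (0.015). In silibinin against model it left -4.28 for Saa1 (adjusted p = 0.056), no longer called, -4.54 for Saa2 (0.03) and -1.68 for Lcn2 (0.031), and in phloridzin against model -4.45 for Saa2 (0.04). With livers left out in turn, the change in model against control stayed between 3.95 and 5.35 for Saa1, 4.30 and 4.98 for Saa2, and 2.13 and 2.41 for Lcn2. The call of Saa1 was lost without control livers 1, 2 and 3 (adjusted p = 0.074, 0.11 and 0.085), model livers 1 and 2 (0.064 and 0.08) or phloridzin liver 2 (0.058), and those of Saa2 and Lcn2 were lost without model liver 2 (0.059 for both). In silibinin against model, Saa1 was called only without model liver 3 (0.016) or phloridzin liver 1 (0.04), with 0.057 to 0.15 without each of the other 10, and Lcn2 only without model liver 3 (0.038), with 0.052 to 0.15 without each of the other 11. Saa2 lost its call there without model liver 2 (0.068), silibinin liver 2 (0.051) or silibinin liver 3 (0.068), and in phloridzin against model without model liver 2 (0.1), phloridzin liver 2 (0.075) or phloridzin liver 3 (0.056). Saa1 gained a call in phloridzin against model without model liver 3 (0.017) or phloridzin liver 1 (0.033). With 1 FPKM added in place of 0.1, the adjusted p in model against control was 0.052 for Saa1, 0.10 for Saa2 and 0.007 for Lcn2, and none of the 3 was called with either drug. With 0.01 FPKM added, Saa1 was called in phloridzin against model (-5.1, adjusted p = 0.036). With the replicate number as a block it was called there as well (0.023), and Lcn2 was not called in silibinin against model (0.07). No other annotated gene overlaps the 10 members on either strand.

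**Figure D5:**
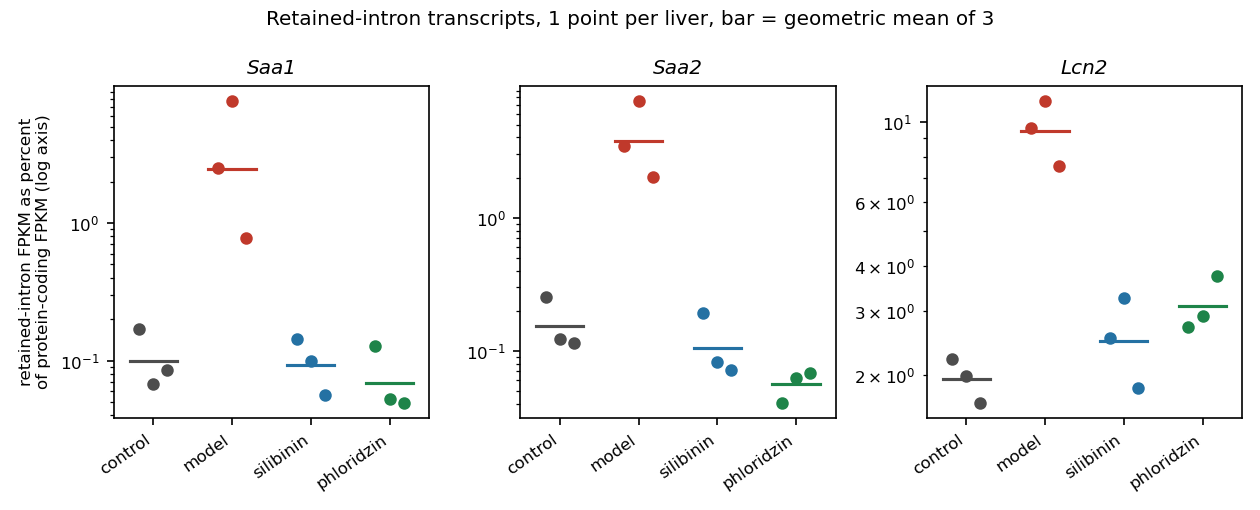
Retained-intron FPKM as a percentage of protein-coding FPKM for Saa1, Saa2 and Lcn2 on log axes, 1 point per liver, with a bar at the geometric mean of the 3 livers of each group. For each gene the 3 model livers lie above the other 9, as at 7.56 to 11.4 for Lcn2.

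Cell type markers were read beside these genes. Of the hepatocyte markers, Alb was at 10970.0 to 29357 FPKM. Ttr was at 10.3 FPKM in phloridzin liver 1 and 39.8 in control liver 1, beside 706 to 2530 in the other 10 livers, and Tat at 69.2 in phloridzin liver 1, beside 200 to 729 in the other 11. Of the 8 markers, 1 was called lower with CCl4, Cyp2e1, at -2.35 (adjusted p = 0.0014 by limma), and 0 when the highest transcript stood for the gene. Neutrophils also make Lcn2. The 12 neutrophil markers summed to 23.2, 9.29 and 25.4 FPKM in the control livers, 31.4, 78.3 and 49.1 in the model livers, 21.3, 31.3 and 12.6 in the silibinin livers and 25.7, 96.9 and 46.2 in the phloridzin livers. S100a8 was the most abundant of them (mean 23.5 FPKM), Ngp, Mpo, Elane, Ly6g and Cxcr2 were under the filter, and 1 of 7 tested, Retnlg, was called higher in the model group (1.20, adjusted p = 0.035 by limma). That count was 3 with voom, 0 after scaling by median ratios, 2 without control liver 1 or model liver 1, and 0 without control liver 2, model liver 2 or model liver 3. Among all genes tested 9.42% were called higher and 1.08% lower by limma. Voom called 2333 of 13150 higher, and after scaling 529 of 13158 were called higher. In silibinin against model Retnlg was called lower (-1.36, adjusted p = 0.041 by limma), the only one of the 7, where voom called 1. That count was 0 after scaling by median ratios, with the replicate number as a block, with only the 2 groups compared and without control livers 1 or 3, model livers 2 or 3 or silibinin livers 1 or 3. In phloridzin against model 0 were called by limma or by voom, 1 was higher at an unadjusted p under 0.05, and 2 were called higher without phloridzin liver 1. S100a9 was listed at 0 in control liver 1 and in other livers where S100a8 was not. Their part in the values of Lcn2 was not tested.

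Macrophages also make Saa3. The 12 macrophage and monocyte markers summed to 88.2, 150 and 147 FPKM in the control livers and to 274, 465 and 396 in the model livers. The sums were 342, 447 and 331 in the silibinin livers and 518, 531 and 264 in the phloridzin livers. Of the 12, 4 were called higher with CCl4 (Lyz2, Ccr2, Trem2 and Itgam) and Lyz2 was the most abundant (mean 202 FPKM). Among all genes tested 9.42% were called higher with CCl4. By limma and by voom 0 were called in silibinin or phloridzin against model, and at an unadjusted p under 0.05 there were 0 with silibinin and 2, both lower, with phloridzin. None of the 12 was at 0 in every liver. Their part in the values of Saa3, or of Il1b, Il1a, Clcf1, Cd14 and Il1rn, was not tested.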

How the data were processed

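The authors deposited FPKM values, 1 for each of 169430 transcripts and 12 livers, scaled by transcript length and library size. The submitters' processing notes name FastQC 0.11.5, HISAT2 2.1.0, StringTie 1.3.3b, DESeq 1.28.0 and build mm10, and the libraries were made with an NEB kit from total RNA. Silibinin was given at 27.3 mg/kg. In transcripts of at least 1500 bases, 98.6% to 98.8% of values under 40 steps were whole multiples of a step within 0.05. In all 12 livers more transcripts lay at 4 steps than the mean at 3 and 5, so a step may not be a whole fragment.

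FPKM was summed per gene symbol, log2(FPKM + 1) was fitted in one model of the 4 groups with limma 3.58.1 and a trend in R 4.3.3, with Benjamini-Hochberg adjustment of p over the 13158 genes with a mean of at least 0.5 FPKM. The fold change understates changes of low genes. The fit was tested on simulated data. Permutation tests, sequences and plots used Python 3.11.15 with matplotlib 3.10.9, scipy 1.17.1, pandas 2.3.3 and numpy 2.4.6. Named genes are the 10 members, genes of the lists that were called in at least 1 comparison, the defining genes of each list and the 3 genes nearest to each member. Marker genes named were chosen after their values were seen, as were Cebpa, Scarb1, Hba-a1, Trf and Apoa2. Transcript types and lengths are those of GENCODE M21, where 98.1% of matched Ensembl transcripts had the same position. The members and lists were chosen with earlier results of these data known. Alternatives covered the pseudocount, the filter, scaling, the groups in the fit, a replicate block, the transcripts summed, paralogs, the fold cutoff, voom and each liver left out. The retained-intron ratios, their alternatives and the sums of protein-coding transcripts were added after the data were seen.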

Additional observations from a re-analysis of the deposited data

How the results depend on the processing

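Of the 60 member fold changes, under 25 alternatives each, 1430 of 1500 values kept their sign and side of the threshold, 10 lost the call, 3 gained it and 57 changed sign. For the changed values the cause was not tested. All 82136 transcripts with a gene symbol are Ensembl transcripts, so the alternative with these alone was the same fit. Of 2400 values of list and marker counts, 123 moved by more than 1.5 times. Members called in model against control numbered 1, and 0 with no filter on low values, with the highest transcript for the gene or with protein-coding transcripts only, and from 0 to 3 with livers left out. In phloridzin against control they numbered from 0 to 1 with livers left out. The replicate block left the members called at 1 in model against control and 0 in the other comparisons, and the genes called there at 1229 higher and 134 lower. The numbers do not pair the livers: the correlation of deviations of same-numbered livers was between -0.09 and 0.10 over 18 pairs, and 2 of 12 livers were closest to their own number. The sum of Orm1, Orm2 and Orm3, taken in place of Orm2, was at 0.40 in model, 0.70 in silibinin and 1.02 in phloridzin against control. Median ratio scaling changed Stat3 to -0.20 in model against control, Lcn2 to 0.07 and Serpina3n to 0.08 in phloridzin against model, Apcs to -0.03 in phloridzin against silibinin and Saa3 to -0.005 in phloridzin against control. Voom changed Stat3 to -0.06 in model against control, Lcn2 to -0.02, Hpx to -0.01 and Serpina3n to -0.03 in silibinin against model, and Apcs to -0.002 in phloridzin against silibinin. In phloridzin against model, Lcn2 was at 0.06 with the highest transcript and 0.02 with protein-coding transcripts. With livers left out, the fold changes that turned ranged as follows. In model against control, Apcs ranged from -1.09 to 0.17. In silibinin against model, Saa2 ranged from -0.54 to 2.33, Orm2 from -0.59 to 0.97, Lcn2 from -0.58 to 0.59, Hpx from -0.31 to 0.41 and Serpina3n from -0.36 to 0.29. In phloridzin against model, Saa1 ranged from -0.28 to 1.95, Saa2 from -1.28 to 1.79, Lcn2 from -0.86 to 0.31 and Serpina3n from -0.91 to 0.38. In phloridzin against silibinin, Saa1 ranged from -1.52 to 0.60, Saa2 from -2.30 to 0.47, Saa3 from -1.13 to 0.99, Orm1 from -0.05 to 0.52, Orm2 from -0.04 to 1.63, Lcn2 from -0.92 to 0.25, Hp from -0.48 to 0.34, Apcs from -0.62 to 0.45 and Serpina3n from -0.96 to 0.33. In silibinin against control, Saa3 ranged from -0.13 to 1.12. In phloridzin against control, it ranged from -0.69 to 1.42. Of the 144 values of retained-intron ratios, 0 changed sign and 43 lost the call.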

Other observations

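The other cell type markers gave these values in model against control. Of 9 stellate cell and myofibroblast markers, 4 were called higher by limma, led by Col1a1 (log2 fold change 4.35, adjusted p = 0.00042). Cholangiocyte markers had 1 of 3 tested called higher, Spp1, at 1.94 (adjusted p = 0.0041). Of endothelial, lymphocyte and erythroid markers 0 were called by limma, where 1 of 6, 3 of 4 and 1 of 5 passed at an unadjusted p under 0.05, and voom called 0, 2 and 0. After scaling by median ratios 1 erythroid marker, Hba-a1, was called lower (-1.09, adjusted p = 0.03 by limma). Among all genes tested 9.42% were called higher and 1.08% lower by limma, and voom called 2333 of 13150 higher and 222 lower. With no fold cutoff, 4094 of all 13158 genes tested were higher and 500 lower at an adjusted p under 0.05 by limma. How many passed at the unadjusted level was not counted. Of the adipocyte markers, Cidec was the only one above the filter. In the model livers Plin1 and Lep were at 0 FPKM and Retn at 0 to 0.0346. Cidec was called higher in the model group (1.56, adjusted p = 0.0016) and lower with silibinin (-1.67, adjusted p = 0.0026) and phloridzin (-1.50, adjusted p = 0.0049).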
